A study of Mus musculus with 8 samples.

Results

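The 53 genes described here carry out or time cell division, and their transcripts were followed in mouse heart ventricle at birth and at 1 week of age. They were chosen by name and sorted by role: 11 genes of DNA replication, 27 genes of mitosis, and 15 others, which are the D-type and E-type cyclins and their kinases, transcription factors of the cycle, Gins2 and Tyms of S phase, and Mki67 and Ccna2, which are used in both phases. They were 53 of 22909 genes that had a named probe on the array. Each gene was read by the brightest probe whose RefSeq accession belongs to it, and 30 of the 53 had 1 probe. All but 1 of the members, 52 genes, were well above background on all 8 arrays and were tested. Ccne2, which encodes cyclin E2, was above background on none of the 8 arrays and has no value below.

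The arrays formed 4 groups of 2: wild type (WT) and homozygous TNNT2ΔK210/ΔK210 knock-in (KI) mice, each on the day of birth (0 day) and at 1 week. Tnnt2 encodes cardiac troponin T of the thin filament, and the knock-in, which lacks a lysine of that protein, is used as a model of inherited dilated cardiomyopathy. Ventricles of 3 animals were pooled for a group, and it is not stated that the 2 arrays of a group hold different pools; errors and p-values therefore describe the spread between arrays, part or all of which may be technical. The labels name no strain, Cre or transgene. The 8 arrays shared 1 slide. Each age filled a row of its own, and at birth each genotype filled columns of its own, so that age cannot be told apart from row, nor genotype at birth from column. At 1 week the deposited value table and the deposited scanner files give different samples for 3 of 4 arrays, here called A to D. By the value table, WT is A and D and KI is B and C; by the scanner files, WT is A and B and KI is C and D. Comparisons of genotypes at 1 week are given by the value table, with the scanner-file samples beside them, while birth against 1 week over both genotypes is the same in either. All levels are log2 signals minus the 75th percentile of the array's probes, so 0 is the signal of that percentile.

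The 75th percentile of signal was 440 to 466 on the birth arrays, 511, 523 and 468 on A, B and C, and 342 on D, and 58.9% to 63.1% of probes were well above background. Precision is limited by the few arrays. Age accounted for the first principal component (60.8% of variance), and array D stood apart on the second (11.7%). All 10 cardiomyocyte markers were above background on every array, with a mean log2 level of 7.52 to 7.71. Markers of other cells were present too. Of 10 fibroblast markers, 10 were above background on all arrays, with a mean level of 3.19 to 3.499 at birth and 3.97 to 4.33 at 1 week; of 9 neutrophil markers 5 were, with -1.61 to -0.68 at birth and -3.20 to -2.55 at 1 week. Of 11 erythroid markers with a probe, 8 were above background on all arrays and Rhag and Epb42 on none; their mean level was -0.84 to -0.34 at birth and -0.51, -0.22, 0.18 and -0.20 on A, B, C and D. Of 7 adipocyte markers 3 were above background on all arrays, and their mean level was -2.81 to -2.61 at birth, -2.59 on A, 0.19 on B, 0.31 on C and 1.30 on D. Of 6 atrial markers 5 were above background on all arrays. Their mean level was 2.89 to 3.46 at birth, 0.67 on A, 3.44 on B, 3.37 on C and 4.03 on D. The part of these cells in the results below was not tested, and fewer dividing cells cannot be told apart from less RNA per cell in a bulk sample.

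A dividing cell first licenses its replication origins, with Cdc6 and Cdt1 loading the Mcm2 to Mcm7 helicase, then copies its DNA in S phase and parts the copies in mitosis. Genes of the first step are known targets of E2F transcription factors, whereas genes of mitosis are switched on later by the Mybl2 and Foxm1 complexes through an element named CHR and nearby CCAAT boxes. In the mouse heart, cardiomyocytes leave the cell cycle soon after birth, many of them after a last round of DNA synthesis and nuclear division without cytokinesis, while fibroblasts, endothelial cells and blood cells go on dividing.

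Promoter windows of RefSeq genes (build GRCm38.p6, 250 bases before to 50 bases after the start) were found for 42 of the 53 members and were searched on both strands. The E2F core was searched as TTCCCGC or TTGGCGC or TTCGCGC or TTGCCGC, the CHR as TTTGAA or TTTAAA, and the CCAAT box as CCAAT; the E2F form GCGCCAA overlaps a CCAAT box wherever a T follows it. An E2F core was present in 8 of 10 replication windows (80.0%) and in 4 of 23 mitosis windows (17.4%), against 9.69% of the windows of all 27025 genes. A CHR was present in 21 of 23 mitosis windows (91.3%) and in 3 of 10 replication windows, against 27.8% of all genes. CCAAT boxes were about as frequent in one class as in the other, in 19 of 23 mitosis windows (82.6%) and 8 of 10 replication windows (80.0%), against 37.9% of all genes. Among the 12438 genes tested here that had a window, the shares were 15.5% for E2F, 20.3% for CHR and 38.5% for CCAAT. These matches describe the letters of the windows and were not measured as bound sites.

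The 250 bases before the start are shown for 2 replication genes and 3 mitosis genes that differed between the ages, so that the layouts can be set side by side with the values below. Capitals mark every match to the motifs above, and positions count back from the start, the first base before it being -1. The windows are chr11:98907901-98908150 (plus strand) for Cdc6, chr8:75109259-75109508 (plus) for Mcm5, chr13:100786487-100786736 (minus) for Ccnb1, chr2:164769679-164769928 (plus) for Ube2c and chr19:37376132-37376381 (plus) for Kif11.
Cdc6: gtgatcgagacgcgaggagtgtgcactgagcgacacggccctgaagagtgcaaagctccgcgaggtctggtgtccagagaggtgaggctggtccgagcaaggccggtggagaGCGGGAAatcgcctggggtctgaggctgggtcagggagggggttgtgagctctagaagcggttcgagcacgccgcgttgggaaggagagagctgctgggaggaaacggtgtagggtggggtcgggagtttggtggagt
Mcm5: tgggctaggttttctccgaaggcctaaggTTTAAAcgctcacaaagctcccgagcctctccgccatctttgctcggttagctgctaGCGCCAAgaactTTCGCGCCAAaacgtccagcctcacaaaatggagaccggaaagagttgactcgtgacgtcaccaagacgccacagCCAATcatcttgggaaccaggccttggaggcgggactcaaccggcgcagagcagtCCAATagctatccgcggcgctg
Ccnb1: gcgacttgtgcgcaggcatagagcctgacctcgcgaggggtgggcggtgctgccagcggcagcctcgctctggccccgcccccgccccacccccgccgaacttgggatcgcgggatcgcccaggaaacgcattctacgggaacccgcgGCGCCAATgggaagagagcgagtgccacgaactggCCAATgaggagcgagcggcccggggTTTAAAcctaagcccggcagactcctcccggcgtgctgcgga
Ube2c: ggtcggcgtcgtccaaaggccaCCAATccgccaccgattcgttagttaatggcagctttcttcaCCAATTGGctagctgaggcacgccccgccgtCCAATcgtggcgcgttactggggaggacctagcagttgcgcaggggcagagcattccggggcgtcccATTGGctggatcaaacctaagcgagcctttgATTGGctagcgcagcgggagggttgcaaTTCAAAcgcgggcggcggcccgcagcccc
Kif11: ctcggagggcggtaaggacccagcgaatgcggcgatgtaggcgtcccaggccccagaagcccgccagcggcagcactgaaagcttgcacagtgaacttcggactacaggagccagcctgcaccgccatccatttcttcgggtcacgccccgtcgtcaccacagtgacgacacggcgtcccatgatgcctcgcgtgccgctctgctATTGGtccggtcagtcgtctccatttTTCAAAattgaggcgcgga
Cdc6 held a single match, an E2F core at -138. Mcm5 held E2F cores at -164, -152 and -149, with CCAAT boxes at -77 and -22 and a CHR far upstream at -221. Kif11 and Ube2c each held a CHR close to the start, at -19 and -29, with the nearest CCAAT box at -45 and -57 and no E2F core. Ccnb1 combined a CHR at -42 with CCAAT boxes at -99 and -67, the first of which overlaps an E2F core at -102. Not all genes of these classes that differed between the ages are shown. In its full window, Mcm2 held no E2F core but 1 CHR and 1 CCAAT box. Mcm3 held 3 E2F cores and no CHR, and Cenpf held 2 CHR matches and no E2F core.

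Between birth and 1 week the replication and mitosis genes parted. Over both genotypes (4 arrays against 4), all 11 replication genes had higher mean levels at 1 week, with a median log2 difference of +0.41. All 27 mitosis genes had lower ones, with a median of -0.36. These signs are of the brightest probe, and second probes of Kif23 (+0.27) and Aurkb (+0.06) were positive. Of all 15744 genes tested, 46.6% were higher and 53.4% lower, with a median of -0.03. In limma, 7 of the 52 members rose and 6 fell (Benjamini-Hochberg adjusted p under 0.05 over all genes). The background was high, with 31.9% of all genes past the threshold, 15.5% higher and 16.3% lower, so the share of members called is near or below it; what parts the classes is direction. Of the 7 that rose, 4 were replication genes and none belonged to mitosis; of the 6 that fell, 4 were mitosis genes and none belonged to replication. In 7 members all 1-week arrays lay above all birth arrays (16.2% of all genes) and in 3 they lay below (19.4%).

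The split could be read within each array, where the scaling between arrays plays no part. On an array, the median deviation of the mitosis genes from their 8-array means was subtracted from that of the replication genes. The result was -0.38 and -0.36 on the WT birth arrays and -0.37 and -0.42 on the KI birth arrays. At 1 week it was 0.54 on A, 0.34 on B, 0.22 on C and 0.42 on D. The ages did not overlap, and the smallest 1-week value came from C, which had the highest levels of both classes among the 1-week arrays. Such a within-array difference shows that the classes changed unequally, not that either one stayed level.

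**Figure D1:**
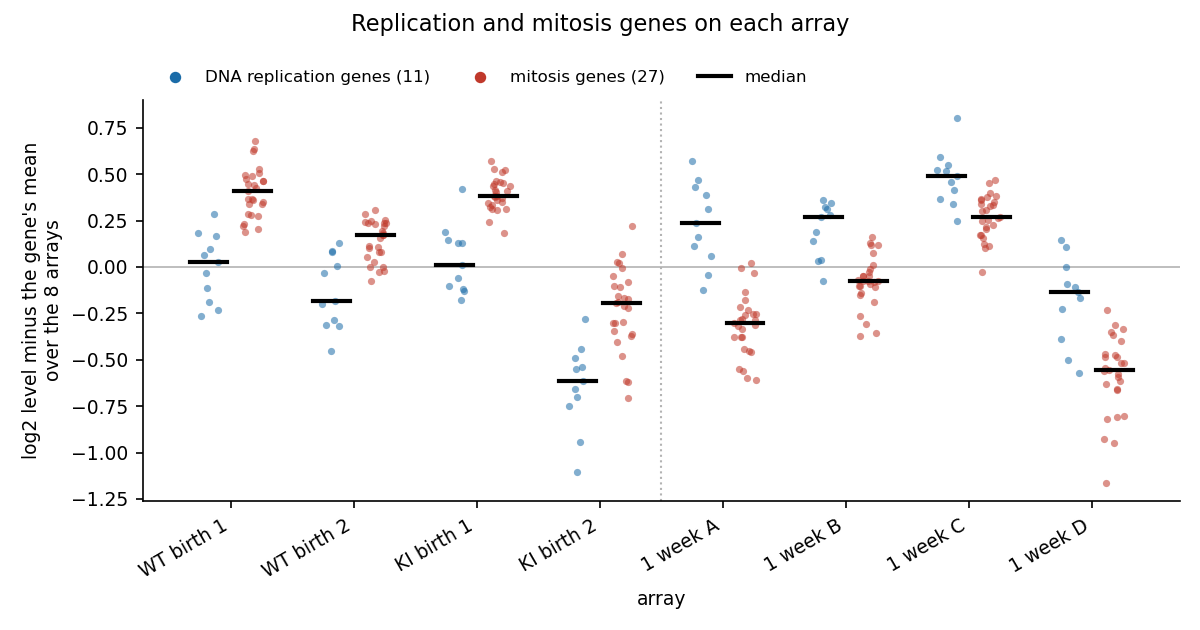
Each point is 1 gene's log2 level minus its own mean over the 8 arrays, for 11 replication genes (blue) and 27 mitosis genes (red), and black bars are medians. Replication medians lie below mitosis medians on the 4 birth arrays (by 0.36 to 0.42) and above them on the 4 arrays at 1 week (by 0.22 to 0.54), while whole arrays also shift together, KI birth 2 and D downward and C upward.

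The signs of the 2 classes depended somewhat on scaling and on single arrays. With median centring, Mcm7 and Rrm1 turned negative and 9 of 11 replication genes stayed positive, and with normexp Mcm7 alone turned. Without KI birth replicate 2, the array on which the replication genes were lowest, 7 of 11 were positive and the replication median was +0.17, with Mcm7, Pcna, Rrm1 and Rrm2 on the other side; without array C 8 of 11 were positive. Mitosis genes were negative in 23 to 27 of 27 under all alternatives, the fewest without array D, where Aurkb, Cenpa, Prc1 and Top2a were not. With the mean of all probes 25 of 27 were negative, and Aurkb and Kif23 were not. The difference between the class medians stayed between 0.63 and 0.92 under all 17 alternatives. Several of these could not move it by construction. The scanner-file samples, median centring, the percentile over spots, no filter and the replicate block all left it at 0.78. The scanner-file samples without array D repeat the value table without D, at 0.67. For calls over both genotypes, the 2 scanner-file settings among the 17 likewise repeat other fits, because the ages hold the same arrays in either record.

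Among the replication genes, Cdc6, the ATPase that loads the helicase on origins, showed the clearest rise. Its log2 level was -1.52 and -1.79 in WT and -1.39 and -1.87 in KI at birth, against -1.10, -0.99, -0.81 and -1.19 on A, B, C and D. Every 1-week array lay above every birth array, and the difference was +0.62 ± 0.13 (limma SE; 1.54-fold; limma adjusted p = 0.0086). Cdc6 kept its call under all 17 alternatives, and its other probe gave +0.70.

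Mcm3, a subunit of the Mcm helicase, stood at 2.39 and 2.31 in WT and 2.51 and 2.07 in KI at birth, against 3.01, 2.90, 3.18 and 2.62 on A to D. The ages did not overlap here either, with a difference of +0.61 ± 0.14 (limma adjusted p = 0.0117; 0.0505 with median centring, the only alternative without a call), and both other Mcm3 probes were positive (+0.51 and +0.54). Mcm5 (+0.62 ± 0.17; limma adjusted p = 0.0274) and Mcm2 (+0.55 ± 0.18; limma adjusted p = 0.0449), subunits of the same ring, also rose. The calls of these 2 were lost with median centring, without filtering and when any of several single arrays was left out (A, B, C, WT birth 2 or KI birth 2 for both, and WT birth 1 for Mcm2), with adjusted p up to 0.0832 for Mcm5 and 0.115 for Mcm2.

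The other helicase subunits did not pass. Mcm6 was at 3.85 and 3.81 in WT and 3.51 and 2.74 in KI at birth, and at 4.11, 3.72, 3.93 and 3.79 on A to D. The 1-week arrays were level with the WT birth arrays and above the KI ones, giving +0.41 ± 0.23. Mcm4 stood at +0.27 ± 0.18 and Mcm7 at +0.04 ± 0.14, so the 6 subunits ranged from 0.04 to 0.62. Cdt1, the partner of Cdc6 in loading the ring, was at +0.52 ± 0.20 (limma adjusted p = 0.0798).

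The clamp of the fork and the enzymes of nucleotide supply did not pass either. Pcna, the sliding clamp of DNA polymerases, was at +0.15 ± 0.24 and Rrm1, the large subunit of ribonucleotide reductase, at +0.06 ± 0.20. Rrm2, the small subunit of that enzyme, varied widely: 4.44 and 4.12 in WT and 4.57 and 3.05 in KI at birth, against 4.03, 4.48, 4.96 and 3.58 on A to D. KI birth replicate 2 and array D were its low arrays, and the ages overlapped (+0.22 ± 0.38). Of the 2 other S-phase genes, Gins2 of the helicase complex stood at +0.45 ± 0.17 and Tyms, thymidylate synthase, at +0.27 ± 0.20.

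The regulators of G1 moved in opposite directions within 1 family. Cyclins D1, D2 and D3 bind Cdk4 and start the release of E2F. Ccnd2 was at 5.93 and 5.67 in WT and 5.85 and 5.84 in KI at birth, and at 6.34, 6.22, 6.32 and 6.21 at 1 week, on A to D. Ccnd1 was at 3.34 and 3.31 in WT and 3.23 and 2.91 in KI at birth, and at 3.75, 3.54, 3.89 and 3.73 on A to D. For both cyclins every 1-week array lay above every birth array. The difference was +0.46 ± 0.08 for Ccnd2 (1.37-fold; limma adjusted p = 0.0046) and +0.53 ± 0.12 for Ccnd1 (1.44-fold; limma adjusted p = 0.0114). Ccnd3 went the other way, from 5.49 and 5.19 in WT and 5.45 and 5.77 in KI at birth to 4.80, 4.80, 5.002 and 4.77 on A to D. It fell by 0.63 ± 0.13 on the log2 scale (1.55-fold; limma adjusted p = 0.0063), again with no overlap. Ccnd2 and Ccnd3 kept their calls under all 17 alternatives, and Ccnd1 lost its call only with median centring (adjusted p = 0.0517). All 3 probes of Ccnd2 were positive and both probes of Ccnd3 negative.

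Cdk4, the kinase that the D-type cyclins bind, fell by 0.29 ± 0.09 (limma adjusted p = 0.0418), the smallest called difference among the members, and the call held in 5 of 17 alternatives, with adjusted p up to 0.104. Cdk2, the partner of cyclins E and A, was at 0.71 and 0.58 in WT and 0.63 and 0.27 in KI at birth, and at -0.22, 0.04, 0.51 and -0.49 on A to D. Array C overlapped the birth arrays, and the difference of -0.59 ± 0.20 did not pass (limma adjusted p = 0.0571). Ccne1, cyclin E1, stood at +0.11 ± 0.29.

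All 4 transcription factors had positive values. E2f1, an activator of replication genes, rose: it was at -0.02 and -0.05 in WT and 0.04 and -0.57 in KI at birth, and at 0.41, 0.46, 0.50 and 0.20 on A to D. No birth array reached a 1-week array, and the difference was +0.54 ± 0.15 (limma adjusted p = 0.0217), lost with median centring and without array A or B (adjusted p up to 0.0757). Mybl2, which works with the mitosis genes' regulators, was at +0.46 ± 0.17, E2f8, a repressor of E2F targets, at +0.13 ± 0.29 and Foxm1, the activator of mitosis genes, at +0.13 ± 0.22.

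**Figure D2:**
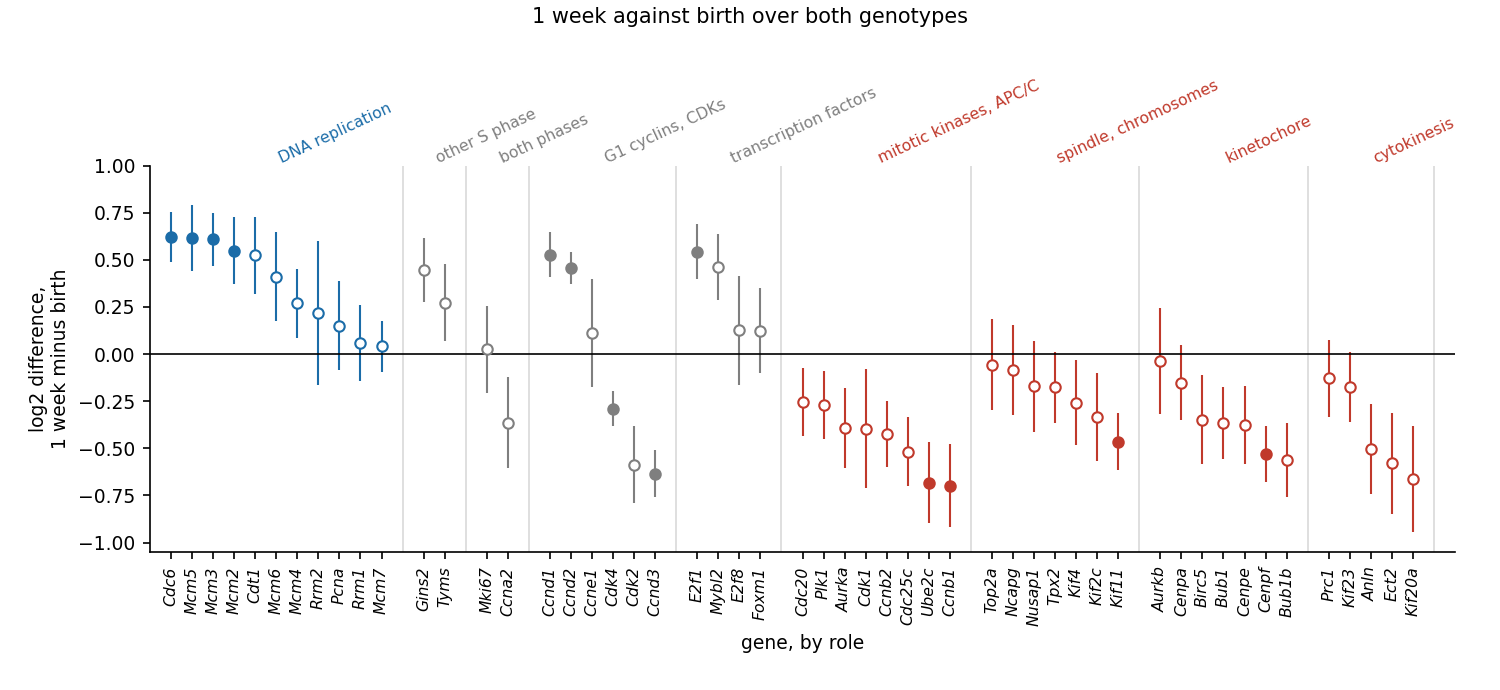
Log2 difference between 1 week and birth for each of the 52 genes tested, over both genotypes (4 arrays against 4), with the limma SE as bars; filled points have an adjusted p under 0.05. The 11 replication genes run from +0.04 to +0.62 and the 27 mitosis genes from -0.70 to -0.04, with D-type cyclins on both sides of 0.

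Among the mitosis genes, Ccnb1, cyclin B1, whose complex with Cdk1 drives entry into mitosis, had the largest difference. It was at 3.04 and 2.58 in WT and 2.98 and 2.42 in KI at birth, and at 1.95, 2.10, 2.58 and 1.60 on A to D. Array C reached into the birth range while the other 3 lay below it, and the difference was -0.70 ± 0.22 (1.62-fold; limma adjusted p = 0.0404). Its 2 other probes gave -0.80 and -0.66. Ube2c, the ubiquitin-conjugating enzyme of the anaphase-promoting complex, was at 3.26 and 3.004 in WT and 3.23 and 3.002 in KI at birth, and at 2.32, 2.59, 2.995 and 1.86 on A to D. All 4 arrays at 1 week lay below the birth arrays, C by the smallest margin, and Ube2c fell by 0.68 ± 0.22 (limma adjusted p = 0.0418).

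Kif11, the motor that pushes spindle poles apart, fell by 0.46 ± 0.15 (limma adjusted p = 0.0442), and Cenpf, a large kinetochore protein, fell by 0.53 ± 0.15 (limma adjusted p = 0.0273), but a second Cenpf probe gave -0.19. The 4 mitosis calls rested on thin margins: Ccnb1 and Kif11 kept theirs in 9 of 17 alternatives, Cenpf in 8 and Ube2c in 7, with adjusted p up to 0.101, 0.315, 0.102 and 0.0968. Each was lost without array A, D, WT birth 1 or KI birth 1.

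By role, the 8 kinase and anaphase-promoting complex genes had a median of -0.41, the 7 kinetochore genes -0.36, the 5 cytokinesis genes -0.50 and the 7 spindle and chromosome genes -0.18. Cdk1, the mitotic kinase itself, was at 1.05 and 0.71 in WT and 0.89 and 0.22 in KI at birth, and at 0.51, 0.64, 0.77 and -0.65 on A to D. Array D alone stood far below the rest, and the difference was -0.40 ± 0.32. Kif20a, a motor of the central spindle in cytokinesis, went from 2.60 and 2.26 in WT and 2.50 and 1.87 in KI at birth to 1.38, 1.83, 2.34 and 1.03 on A to D. Arrays A, B and D were below all birth arrays and C was not (-0.66 ± 0.28; limma adjusted p = 0.102). Top2a, the topoisomerase that untangles sister chromosomes, was at 2.53 and 2.40 in WT, 2.63 and 1.84 in KI at birth, against 2.19, 2.44, 2.79 and 1.76 on A to D. The ages overlapped (-0.06 ± 0.24), and the sign turned with quantile normalization and without array D, WT birth 1 or KI birth 1.

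None of the remaining mitosis genes passed, and they differed within each role. Among the kinases and their partners, Cdc25c, the phosphatase that activates Cdk1, was at -0.52 ± 0.18 (limma adjusted p = 0.0609) and Ccnb2, cyclin B2, at -0.42 ± 0.17. Aurka, the centrosome kinase Aurora A, was at -0.39 ± 0.21, Plk1, Polo-like kinase 1, at -0.27 ± 0.18 and Cdc20, the activator of the anaphase-promoting complex, at -0.25 ± 0.18. Of the kinetochore group, the checkpoint kinases Bub1b and Bub1 stood at -0.56 ± 0.20 (limma adjusted p = 0.0571) and -0.36 ± 0.19, and the motor Cenpe at -0.38 ± 0.21. Birc5, survivin, and Aurkb, Aurora B, belong to 1 complex but stood at -0.35 ± 0.24 and -0.04 ± 0.28, and Cenpa, the centromeric histone, was at -0.15 ± 0.20. A second Aurkb probe was positive, at +0.06.

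In cytokinesis, Ect2, which activates RhoA at the division plane, was at -0.58 ± 0.27 and the scaffold Anln, anillin, at -0.50 ± 0.24, whereas Kif23 (-0.17 ± 0.18) and Prc1 (-0.13 ± 0.21), both of the central spindle, lay nearer 0. A second Kif23 probe was positive, at +0.27. The spindle genes Kif2c (-0.33 ± 0.23), Kif4 (-0.26 ± 0.23), Tpx2 (-0.18 ± 0.19) and Nusap1 (-0.17 ± 0.24) and the condensin subunit Ncapg (-0.08 ± 0.24) were all within 1.5 times their SE of 0.

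Mki67, the proliferation marker Ki-67, lay between the 2 classes. It stood at 3.98 and 3.85 in WT and 4.01 and 3.08 in KI at birth, and at 3.62, 3.71, 4.205 and 3.49 on A to D. The ages overlapped and the difference of +0.02 ± 0.23 (limma adjusted p = 0.947) changed sign with median centring. Ccna2, cyclin A2, also used in S phase and mitosis, stood at -0.36 ± 0.24.

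**Figure D3:**
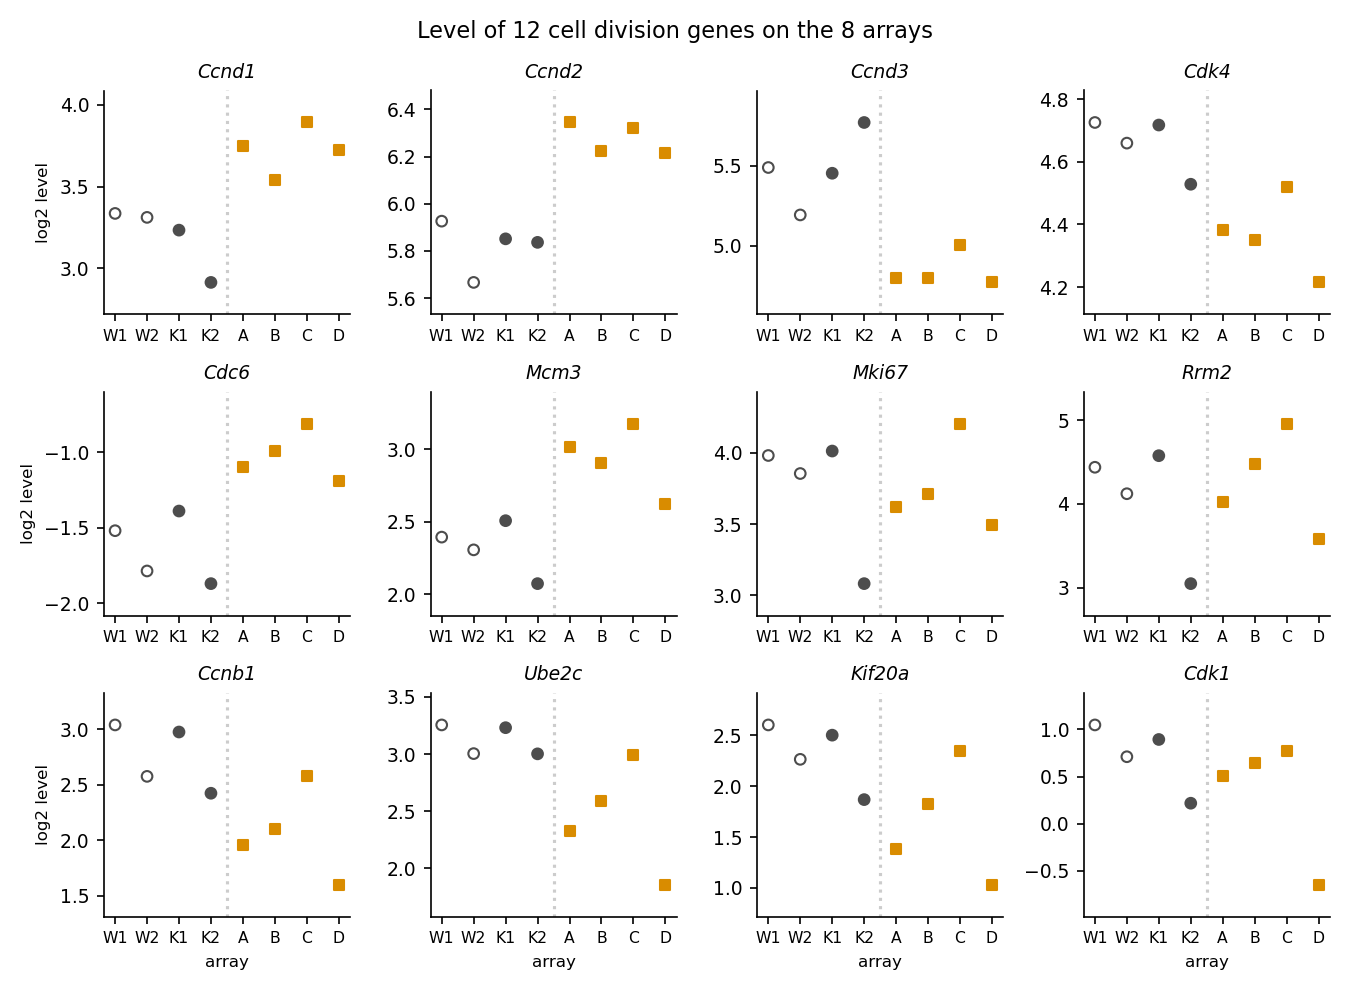
Log2 level (0 is the 75th percentile of the array) of 12 genes on the 2 WT birth arrays (W1, W2, open circles), the 2 KI birth arrays (K1, K2, filled circles) and the 1-week arrays A to D (squares). Ccnd1, Ccnd2, Cdc6 and Mcm3 are higher and Ccnd3 lower on every 1-week array than on any birth array, while Mki67 and Rrm2 overlap between the ages, and C is the highest 1-week array for every gene shown but Ccnd2.

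Other genes of the 2 pathways were less one-sided. Beside the counts below, 46.6% of all genes had positive and 53.4% negative values, and 15.5% rose and 16.3% fell past the threshold. The share of the further replication genes that rose was below that of all genes. Of 32 further replication genes, 25 had positive values, with a median of +0.32, and 3 rose: Clspn, a checkpoint adaptor at the fork (+0.93 ± 0.28; limma adjusted p = 0.0361), Mcm10 (+0.52 ± 0.17; limma adjusted p = 0.0465) and Pold1, the catalytic subunit of DNA polymerase delta (+0.32 ± 0.08; limma adjusted p = 0.0150). Clspn was low at birth, at -3.12 and -3.87 in WT and -3.39 and -4.52 in KI. The lowest probes well above background on those arrays were at -5.24 to -4.81. Of 45 further mitosis genes, 33 had negative values, with a median of -0.12. Fam83d, a spindle protein, fell by 0.83 ± 0.21 (limma adjusted p = 0.0187), whereas Cit, a kinase of cytokinesis (+0.67 ± 0.17; limma adjusted p = 0.0169), and Cep55, a midbody protein (+0.37 ± 0.12; limma adjusted p = 0.0429), rose. Marker lists of other cells moved over the same arrays. Of 9 neutrophil markers 6 fell and 1 rose (median -2.11), of 10 fibroblast markers 7 rose and 1 fell (median +0.68), of 10 endothelial markers 6 rose (median +0.40), of 8 erythroid markers 3 rose (median +0.37), and of 10 cardiomyocyte markers none passed (median +0.12). The part of these cells in the members' differences was not tested.

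Within genotypes, the classes kept their distance but sat at different heights. In WT by the value table, 40 of 52 members were lower at 1 week (53.5% of all genes were), with a median of -0.49, a replication median of +0.12 and a mitosis median of -0.70. Of 24 other probes above background on all arrays, 5 had the opposite sign to the brightest. Those of Foxm1, Kif23 and Mcm7 were positive and those of Gins2 and Mcm6 negative. Of the 52, 8 fell and none rose past the threshold in limma (19% of all genes passed and 8.96% fell). The 8 were Kif20a (-1.23 ± 0.28; 2.34-fold; limma adjusted p = 0.0260), Ube2c (-1.04 ± 0.22; limma adjusted p = 0.0203), Ccnb1, Cdk2, Anln, Bub1b, Kif11 and Cenpf, of which all but Cdk2 act in mitosis. By the scanner-file samples the median was -0.30, with +0.24 for replication and -0.48 for mitosis, and none of the 52 passed (12.7% of all genes did). By the value table none passed without array D or either WT birth array. In 35 of the 52 both 1-week arrays lay below both birth arrays (33.6% of all genes), among them 26 of the 27 mitosis genes.

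In KI by the value table, 37 of 52 members were higher at 1 week (47.1% of all genes were), with a median of +0.21. All 11 replication genes were positive with a median of +0.70, while 15 of 27 mitosis genes were positive with a median of +0.02. These signs are of the brightest probe, and second probes of Mcm7 (-0.055) and Cenpf (+0.098) had the opposite sign. Only Ccnd3 passed, falling by 0.71 ± 0.17 (limma adjusted p = 0.0420; 10.6% of all genes passed and 4.75% fell). That call held in 4 of 17 alternatives, with adjusted p up to 0.223, and was lost without any 1 of the 8 arrays. Ccnd1 stood at +0.64 ± 0.17 (limma adjusted p = 0.0591) and Cdc6 at +0.73 ± 0.19 (limma adjusted p = 0.0582). In 13 of the 52 both 1-week arrays lay above both birth arrays (28% of all genes), among them 8 of the 11 replication genes and none of mitosis. By the scanner-file samples the height was lower: 25 of 52 members were positive (46.2% of all genes), with a median of -0.02, and the median was +0.46 for the replication genes, all 11 of them positive, and -0.25 for the mitosis genes, 4 of 27 of them positive. Ccnd1 (+0.73 ± 0.15; limma adjusted p = 0.0252) and Ccnd3 (-0.73 ± 0.17; limma adjusted p = 0.0343) passed with those samples (15.3% of all genes did). By the value table the height also depended on 1 birth array, and without KI birth replicate 2 the median of the members was -0.16. The distance between the class medians was 0.82 in WT and 0.69 in KI by the value table, and 0.71 in both by the scanner-file samples.

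KI against WT at birth asked whether the mutant heart differed in these genes before a week of postnatal life. No member passed in limma, and 0.0381% of all genes passed. Of 52 members, 49 were lower in KI (49.5% of all genes were), with a median of -0.20, and the classes did not part, at -0.19 for replication and -0.18 for mitosis. Of 24 other probes above background on all arrays, 7 had the opposite sign to the brightest. They were positive for Cdk4, Kif23, Mcm3 and Mcm7 and negative for Ccnd2 and Cdc6. With the mean of all probes 3 of 52 members were positive. The KI arrays disagreed with each other, and the scanner software's quality check marked replicate 1 for evaluation and no other array. KI birth replicate 2 was the lowest of the 4 birth arrays for 50 of 52 members, all but Ccnd2 and Ccnd3, and for 26.6% of all genes. The highest was KI birth replicate 1 for 28 of 52 (22.3% of all genes) and WT birth replicate 1 for 22 (31.1%). Without KI replicate 2 the median was +0.11, and without KI replicate 1 it was -0.51. Replicate 2 also had the highest mean level of neutrophil markers (-0.68) and erythroid markers (-0.34) at birth and the lowest of fibroblast markers (3.19); their part was not tested.

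In 3 of 52 members both KI birth arrays lay below both WT arrays, a smaller share than the 15.2% of all genes. They were Mcm6 (-0.71 ± 0.25; limma adjusted p = 0.904), Kif4 and Ccnd1 (-0.25 ± 0.17). Kif4, a chromosome-bound motor, was at -0.36 and -0.58 in WT and -0.64 and -1.20 in KI at birth, and at -1.003, -0.91, -0.49 and -1.42 on A to D (KI minus WT at birth -0.45 ± 0.25). On KI replicate 1 Mcm6 lay below both WT arrays by less than replicate 1 differed from replicate 2, and its difference did not pass.

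KI against WT at 1 week asked the same after the first week, and the answer depended on which record names the samples. By the value table, 49 of 52 members were higher in KI (54.4% of all genes were), with a median of +0.46, and in 40 of 52 both KI arrays lay above both WT arrays (19.8% of all genes). All 27 mitosis genes were higher with no overlap, from 0.37 for Cenpf to 0.88 for Kif20a, with a median of +0.53; 10 of 11 replication genes were higher, 4 of them with no overlap, with a median of +0.24. No member passed in limma (0.0508% of all genes did). The smallest p-values belonged to Ube2c (+0.70 ± 0.22; limma adjusted p = 0.631), Kif20a (+0.88 ± 0.28; limma adjusted p = 0.640) and Cdk2 (+0.63 ± 0.21; limma adjusted p = 0.683). The members below 0 were Mcm6 (-0.13 ± 0.25), Ccnd1 (-0.02 ± 0.17) and Ccnd2 (-0.01 ± 0.14). Other probes differed in sign for some genes. A second Mcm6 probe gave +0.41, and the other Ccnd2 probes gave +0.19 and +0.02. Mcm7 and Foxm1 were counted as higher, but second probes of them gave -0.39 and -0.29. With the mean of all probes 49 of 52 members were again higher.

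By the scanner-file samples the same arrays gave a median of +0.02, 31 of 52 positive values (50.6% of all genes) and 1 member without overlap (20.2% of all genes). Of the arrays, C was the highest 1-week array for 49 of 52 members, against 30.3% of all genes, and D the lowest for 44 of 52, against 39.0%. The value table puts C in KI and D in WT, and the scanner files put both in KI. Without D the scanner-file samples gave a median of +0.42, and by the value table the median was +0.34 without D and +0.27 without C. Array C also had the highest mean level of erythroid markers at 1 week (0.18). D had the highest of adipocyte markers (1.30) and fibroblast markers (4.33) and the lowest 75th percentile of signal. A had the lowest of atrial markers (0.67). The part of these in the members' levels was not tested.

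**Figure D4:**
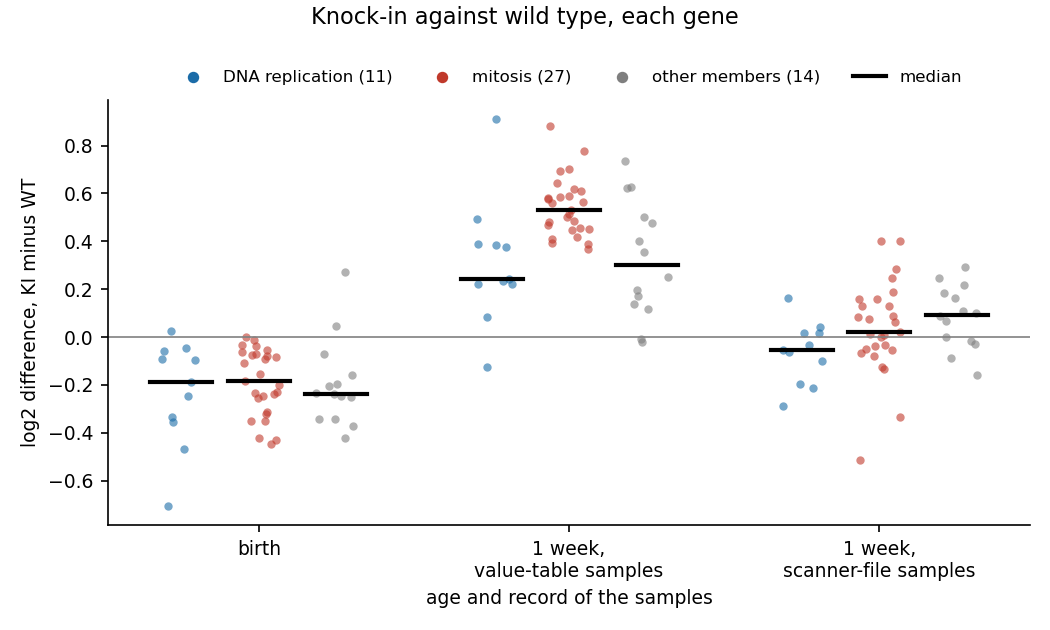
Log2 difference between KI and WT for each member at birth and at 1 week, the latter with the samples named by the value table and by the scanner files; points are genes and black bars medians. The mitosis median is -0.18 at birth, +0.53 at 1 week by the value table and +0.02 by the scanner files.

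The change of the genotype difference with age was tested as well. It was positive in 50 of 52 members by the value table (53.5% of all genes), with a median of +0.64, and +0.22 by the scanner-file samples. None passed in limma (0.00635% of all genes did). The smallest p-values belonged to Kif20a (+1.13 ± 0.39; limma adjusted p = 0.888), Cdk2 (+0.82 ± 0.30) and Kif4 (+0.96 ± 0.35). This difference holds the low KI birth replicate 2 as well as the 1-week arrays, and without that array the median was +0.32.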

How the data were processed

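RNA of 8 ventricle samples was read on single-colour (Cy3) Agilent arrays, 2 in each of 4 groups. Per the file headers, Feature Extraction 11.0.1.1 made the deposited scanner files (the submitters' processing notes name version 9.1); they hold each spot's processed intensity on a linear scale, corrected for background and spatial trend and not normalized between arrays, plus the raw intensity of spot and local background and flags (other values, 0 or 1). The deposited value table holds the same processed intensity per probe. Over 56305 probes with 1 spot, 100.0% of values of each column equalled 1 scanner file at a relative tolerance of 0.0001, for 3 of the 1-week columns that of another sample.

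Spots of a probe were averaged without outlier spots, log2 was taken, and the 75th percentile over non-control probes was subtracted. Symbols came from RefSeq accessions (GRCm38.p6). Genes entered the tests when both arrays of any group were well above background, which left 15744 genes (15757 by the scanner-file samples). The package limma 3.58.1 (R 4.3.3; lmFit, eBayes) fitted a mean per group to all 8 arrays with 4 residual degrees of freedom, and Benjamini-Hochberg adjustment was made per comparison at a threshold of 0.05; ± is the limma SE. The comparison of ages over both genotypes (6 residual degrees of freedom, no genotype term) and the percentile over spots were added after seeing the data. With 2 arrays a group an exact permutation test could not go below p = 0.333. In data simulated for KI against WT at 1 week over 15744 genes, limma recovered 50 of 100 genes changed by 1 on the log2 scale and 83 of 100 changed by 2, with 7 false calls. The simulated noise was separate for each gene and the samples were taken as known. The members shifted together by array, so these rates need not hold for them.

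The members, lists and tests were chosen with earlier results of these data known. Values on every array are given for 8 members fixed by name and the 3 of smallest p in each comparison, with further called members; up to 3 genes are named from each other list. Alternatives were the scanner-file samples with and without array D, normexp, quantile normalization, median centring, no filter, the mean of all probes, a replicate block, and each array left out.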

Additional observations from a re-analysis of the deposited data

How the results depend on the processing

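With 2 arrays a group, counts of called members moved widely. In WT over age (8 called) the count was 0 with the scanner-file samples, 2 with those without array D, 15 with normexp, 2 without a filter and 0 to 10 when each array was left out. In KI over age (1 called) it was 2 with the scanner-file samples, 0 with those without D, 7 with normexp, 3 with quantile normalization, 0 with median centring, with no filter or with the replicate block, and 0 to 4 with arrays left out. Over both genotypes (13 called) it was 7 with median centring, 6 without a filter and 5 to 17 with arrays left out.

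The replication median minus the mitosis median over age stayed positive under every alternative. Median centring, the percentile over spots, no filter and the replicate block cannot change this difference. In WT (0.82) it was 0.71 with the scanner-file samples, with or without D, 0.89 with quantile normalization and 0.70 to 0.88 with arrays left out; in KI (0.69) it was 0.62 to 0.75 with arrays left out. Over both genotypes (0.78) it was 0.67 for the scanner-file samples without D, 0.70 with normexp, 0.70 with the mean of all probes and 0.63 to 0.92 with arrays left out. For KI against WT at 1 week (-0.29) it was -0.0735 with the scanner-file samples, -0.20 without D, and -0.29 to -0.14 with arrays left out; at birth it ranged from -0.0704 to 0.0555, and for the age by genotype difference (-0.27) it was -0.0829, -0.13 and -0.33 to -0.15.

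The median of all members was -0.51 to 0.11 at birth with arrays left out and 0.0169 at 1 week with the scanner-file samples. For KI over age (0.21) it was -0.0193 with the scanner-file samples, 0.41 with those without D and -0.16 to 0.50 with arrays left out, and for the age by genotype difference 0.32 to 0.95, or 0.22 with the scanner-file samples. Signs turned for Cdk1 in KI over age (-0.49 with the scanner-file samples; -0.18 to 0.49 with arrays left out), Kif20a in KI (0.16 for the scanner-file samples without D; -0.42 to 0.22), Mcm6 in WT (-0.0366 with median centring, -0.0614 with the mean of all probes; -0.0382 to 0.28), Mki67 in KI (-0.0555 to 0.88) and over both genotypes (-0.0608 with median centring; -0.19 to 0.12), Rrm2 over both genotypes (-0.12 to 0.44), Top2a in KI (-0.0121 to 0.77) and over both genotypes (0.12 without D, 0.005 with quantile normalization; -0.23 to 0.12) and Ube2c for KI against WT at 1 week (-0.0319 with the scanner-file samples). The cause of these shifts was not tested. Over all tested genes, replicate 1 minus replicate 2 correlated weakly between groups (-0.14 to 0.29 over 6 pairs of groups). With 2 arrays a group, this cannot exclude that the replicate number pairs samples. Apart from the KI count above, the block moved no count of called members by over 1.5 times.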
